A study of Homo sapiens with 12 samples.

Results

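Restoration of BBOX1 was compared with an empty vector (EV) in xenografts of 786-O, an established cell line that came from a human clear cell carcinoma of the kidney. The comparison uses the 6 xenograft libraries of the 12 in the series, taken by the sample titles: 3 of tumours from cells carrying a lentiviral BBOX1 vector and 3 of tumours from cells carrying the empty vector. Both kinds of cell went through lentiviral infection and drug selection, and both were grown in NOD SCID gamma (NSG) mice 6 to 8 weeks old on a regular diet. NSG mice lack T, B and NK cells, so these hosts give no view of an adaptive response. The promoter of the vector, the number of clones and the number of animals behind the tumours were not given in the sources used here. Separate animals are not stated for the replicates, and p-values then reflect no more than how these 6 samples vary, a spread that may be technical. The remaining 6 libraries are the same cells in culture. They are used to test where an effect in xenografts differed from that in culture. They also give culture levels beside some results and enter an alternative fit of the xenograft comparison. The series title places the comparison in a question on BBOX1, the kinase TBK1 and mTORC1.

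BBOX1 encodes gamma-butyrobetaine hydroxylase, which catalyses the final reaction of carnitine synthesis and is active in kidney tubule, liver and brain. Carnitine carries long-chain fatty acids across the inner mitochondrial membrane, where they are oxidised. The 786-O line lacks functional VHL, the protein that marks hypoxia-inducible factors (HIF) for destruction, and it keeps HIF2 active at normal oxygen. In bulk RNA, fewer cells of a type and less RNA per cell cannot be told apart.

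Polyadenylated RNA was counted per gene, and levels are given as CPM, counts scaled to the size of the library, in the order of replicates 1, 2 and 3 of a group. Total counts per library were 13729031 to 16159837 for BBOX1 xenografts and 15171681 to 18937852 for EV xenografts. BBOX1 replicate 1 stood apart from the rest of its group. A chi-square of counts per degree of freedom was 45.9 and 45.6 between it and BBOX1 replicates 2 and 3, 9.41 between those other two, and 12.7 to 16.3 among EV libraries. On the first principal component, 55.0% of the variance, the BBOX1 libraries lay at -6.08, -37.0 and -33.3 and the EV libraries at 19.9, 32.8 and 23.7. On the second, 18.0% of the variance, BBOX1 replicate 1 lay at 34.6 and the other libraries at -13.1 to -4.29. Its correlation was 0.978 and 0.981 with BBOX1 replicates 2 and 3 and 0.979 to 0.981 with the EV libraries. Between BBOX1 replicates 2 and 3 it was 0.990. Mitochondrially encoded genes took 7.96%, 12.6% and 13.7% of counts in the BBOX1 libraries and 8.99%, 6.78% and 7.81% in the EV libraries. Leukocyte, endothelial and erythroid markers were low. Counts were made on a human genome build, and host cells are of the mouse. Low sums of these human genes therefore do not measure how many host cells were present. The summed level of 17 leukocyte markers was 3.11 to 4.60 CPM with BBOX1 and 4.98 to 7.29 CPM with EV, that of 13 endothelial markers 7.36 to 9.34 CPM and 6.37 to 8.93 CPM, and 5 of 7 erythroid markers had 0 counts in all 6 libraries. Markers of adipocytes summed to 9.61 to 14.3 CPM with BBOX1 and 12.5 to 14.6 CPM with EV and those of skeletal muscle to 4.06 to 5.6 CPM with BBOX1 and 3.81 to 5.35 CPM with EV. Fibroblast and pericyte markers were higher, at 280 to 392 CPM with BBOX1 and 267 to 450 CPM with EV. The 13 markers of clear cell carcinoma summed to 8085, 11790 and 11150 CPM in the BBOX1 xenografts and 11530, 12180 and 11320 CPM in the EV xenografts. BBOX1 replicate 1 was the lowest library in that sum. In BBOX1 libraries 1, 2 and 3, 11, 4 and 4 of the 13 lay below the EV range. Over all genes tested those shares were 31.6%, 37.2% and 36.3%. COL3A1, a fibrillar collagen of fibroblasts, stood at 95.4, 65.4 and 84.3 CPM in the BBOX1 xenografts, against 95.9, 118 and 126 CPM in the EV xenografts, with culture means of 0.109 and 0.0199 CPM. COL1A1 stood at 150.3, 292 and 275 CPM in the BBOX1 xenografts, against 126, 153 and 281 CPM in the EV xenografts. These collagens did not pass the test (edgeR adjusted p = 0.0999 and 0.482). Mouse reads that map to the human genome would count here; their removal is not given in the sources used here, and their part in any result was not tested.

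The restored gene followed its label in all 6 libraries. BBOX1 (ENSG00000129151, chromosome 11, 27040725 to 27127809, plus strand, GRCh38) had 1254, 1355 and 1867 CPM in the BBOX1 xenografts, against 0.656, 0.321 and 0.811 CPM in the EV xenografts (log2 fold change 11.29, SE 0.31, edgeR adjusted p = 1.46e-08). The EV xenografts held 10, 6 and 14 counts of it. The spread within the restored group was less than the gap to the EV group by any pairing of libraries, and BBOX1 replicate 1, which stood apart in other genes, had a BBOX1 level close to that of replicate 2. The library kit does not mark strand, so reads of BBOX1 cannot be told apart from those of the antisense gene BBOX1-AS1 that overlaps it.

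More transcripts fell than rose. By edgeR's quasi-likelihood test with Benjamini-Hochberg adjustment over 16126 genes, at an adjusted p under 0.05, 308 genes (1.91%) were higher in BBOX1 xenografts and 586 (3.63%) were lower, together 5.54%. At least 2-fold changes were found in 85 of the genes that rose and 284 of those that fell, and the median log2 fold change of all genes tested was 0.02. Groups without any overlap in CPM were more common than calls, with 14.2% of genes above and 15% below the EV range in all BBOX1 libraries. The counts of calls turned on single libraries. Without BBOX1 replicate 1, 1854 genes rose (11.1%) and 2447 fell (14.7%). Without BBOX1 replicate 2 the counts were 105 (0.63%) and 292 (1.75%), and without BBOX1 replicate 3 they were 27 (0.164%) and 153 (0.927%). Without EV replicate 1, 2 or 3, 115 (0.687%), 22 (0.132%) and 47 (0.282%) genes rose, and 306 (1.83%), 172 (1.03%) and 308 (1.85%) fell. A core of 160 genes was called in the full set and with each of the 6 libraries left out, 22 of them higher (0.136%) and 138 lower (0.856%). At least 2-fold changes were seen in 138 of these 160. Unless a lost call is given, every gene named below as risen or fallen belongs to this core. Counts of list members are calls of the full set unless a left-out library is named. Where it is, the count stands beside the share of all genes in that fit, given above.

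The most abundant protein-coding genes of the core that fell were a secreted protein, a lipid droplet coat, transporters and a stress kinase. Abundant genes of the core, fallen and risen, were taken only where the groups did not overlap, so that trait was set by the choice. SERPINA1, which encodes the secreted protease inhibitor alpha-1 antitrypsin, had 234, 309 and 334 CPM in the BBOX1 xenografts, against 924, 1163 and 888 CPM in the EV xenografts. The highest BBOX1 library was far below the lowest EV library (log2 fold change -1.76, SE 0.17, edgeR adjusted p = 0.000309). PLIN2, which coats lipid droplets and is a known HIF2 target, had 279, 295 and 276 CPM in the BBOX1 xenografts, against 504, 637 and 529 CPM in the EV xenografts. Its BBOX1 libraries lay close together and well under the EV range (log2 fold change -0.98, SE 0.13, edgeR adjusted p = 0.00246). MAP3K4, a stress-activated MAP kinase kinase kinase, had 35.8, 33.9 and 29 CPM in the BBOX1 xenografts, against 286, 320.5 and 213 CPM in the EV xenografts. ANKRD50, a factor of endosomal recycling, had 30.4, 19.6 and 19.4 CPM in the BBOX1 xenografts, against 228, 258 and 157 CPM in the EV xenografts. Both genes were several times lower in every BBOX1 library, and in both EV replicate 2 was the highest and EV replicate 3 the lowest of the EV libraries. Their log2 fold changes were -3.06 (SE 0.17) and -3.21 (SE 0.23), with edgeR adjusted p = 6.35e-06 and 2.92e-05.

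Membrane transporters and an ectoenzyme were part of the same group of abundant genes. SLC7A7, a subunit of a cationic amino acid exchanger, had 102, 78.8 and 82.6 CPM in the BBOX1 xenografts, against 251, 286 and 202 CPM in the EV xenografts. SLC43A2, a transporter of large neutral amino acids, had 70.5, 52.2 and 62 CPM in the BBOX1 xenografts, against 223, 218 and 172 CPM in the EV xenografts. ANPEP, aminopeptidase N of the tubular brush border, had 67.2, 69.4 and 69 CPM in the BBOX1 xenografts, against 265, 296 and 166 CPM in the EV xenografts. In these 3 genes every BBOX1 library was well under the EV range, and EV replicate 3 lay under the other two EV libraries. The log2 fold changes were -1.49 (SE 0.16) for SLC7A7, -1.73 (SE 0.15) for SLC43A2 and -1.82 (SE 0.19) for ANPEP, with edgeR adjusted p = 0.000477, 0.000177 and 0.000477. APCDD1L, a relative of the Wnt inhibitor APCDD1, had 88.3, 109 and 91 CPM in the BBOX1 xenografts, against 298, 392 and 234 CPM in the EV xenografts (log2 fold change -1.68, SE 0.18, edgeR adjusted p = 0.000628). TUBA1C, an alpha-tubulin whose reads may be shared with near-identical paralogs and which is uncertain for that reason, had 272, 230.2 and 200.3 CPM in the BBOX1 xenografts, against 425, 437 and 455 CPM in the EV xenografts (log2 fold change -0.91, SE 0.14, edgeR adjusted p = 0.00483). No library of one group crossed into the other in either gene.

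**Figure D1:**
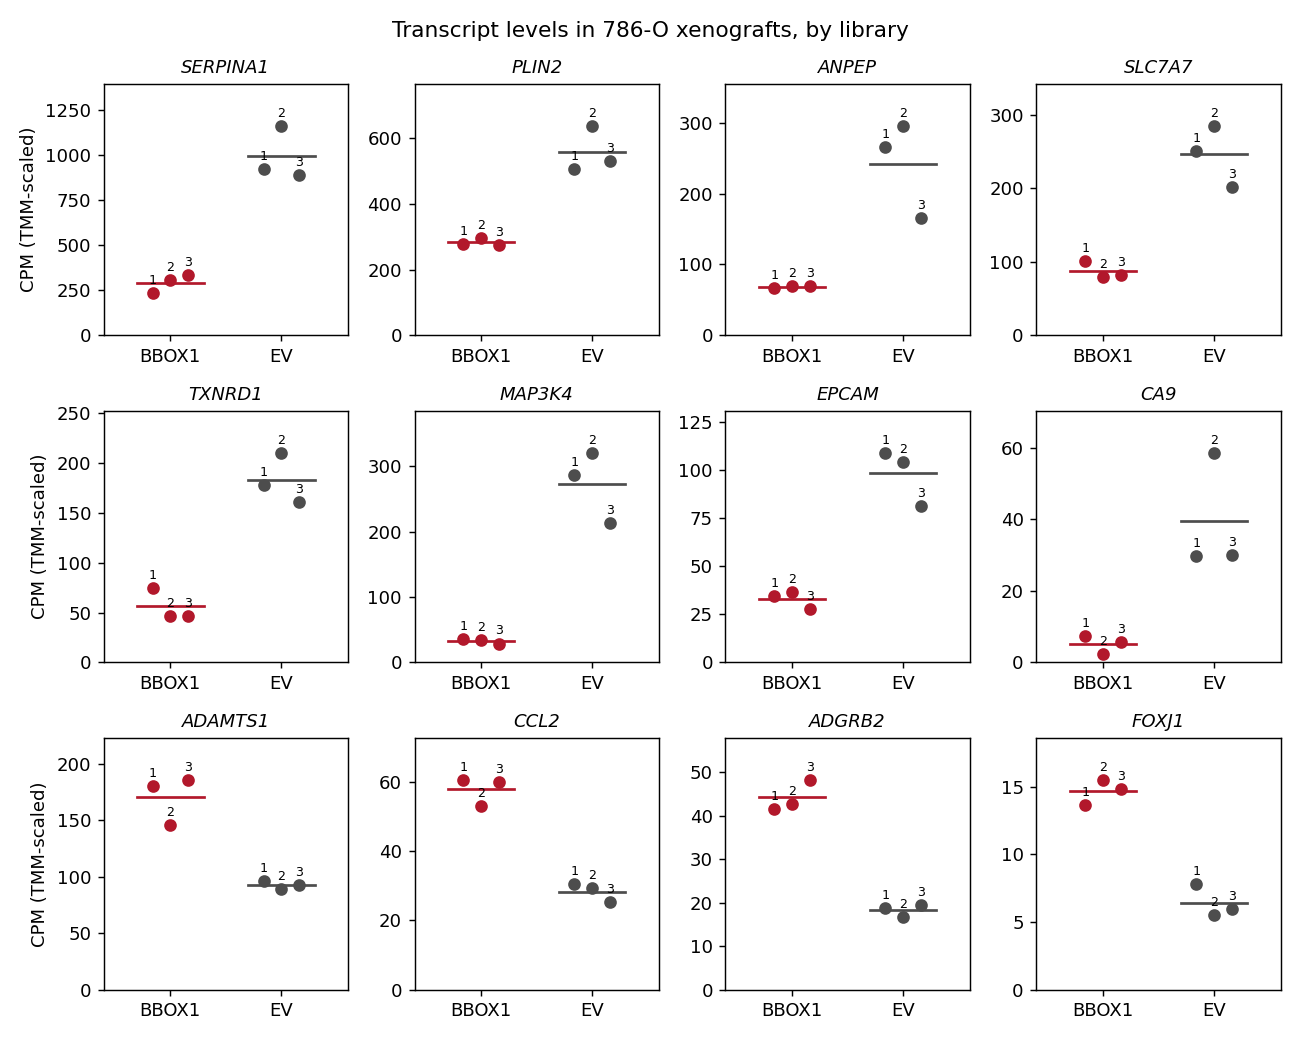
CPM (y axis, linear from 0) of 12 genes in each xenograft library, BBOX1 libraries in red on the left and EV libraries in grey on the right of each panel, numbered by replicate, with group means as lines. In all 12 genes the groups do not overlap, as in MAP3K4 with 35.8, 33.9 and 29 CPM with BBOX1 and 286, 320.5 and 213 CPM with EV. The rule that names abundant genes asks for no overlap. The place of BBOX1 replicate 1 with its group in those panels was therefore set by the choice.

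Abundant genes of the core also rose, with log2 fold changes of 0.83 to 1.28 among those described. ADAMTS1, a secreted metalloprotease that cleaves proteoglycans, had 181, 146 and 186 CPM in the BBOX1 xenografts, against 96, 89.3 and 92.9 CPM in the EV xenografts (log2 fold change 0.88, SE 0.13, edgeR adjusted p = 0.00355). CCL2, a chemokine that attracts monocytes, had 60.6, 53.1 and 59.9 CPM in the BBOX1 xenografts, against 30.4, 29.3 and 25.3 CPM in the EV xenografts (log2 fold change 1.03, SE 0.13, edgeR adjusted p = 0.00139). EV libraries of both genes were close together, and the lowest BBOX1 library was well above the highest of them. OGDHL, a relative of the E1 subunit of oxoglutarate dehydrogenase, had 47.2, 46.6 and 45.7 CPM in the BBOX1 xenografts, against 25.9, 17.4 and 17.6 CPM in the EV xenografts (log2 fold change 1.2, SE 0.16, edgeR adjusted p = 0.00283). ADGRB2, an adhesion G protein-coupled receptor, had 41.6, 42.7 and 48.2 CPM in the BBOX1 xenografts, against 18.7, 16.6 and 19.4 CPM in the EV xenografts (log2 fold change 1.28, SE 0.13, edgeR adjusted p = 0.000417). The BBOX1 libraries of OGDHL were nearly equal, and its EV replicate 1 was the highest of the EV group. The guidance factor SEMA3A rose at 105, 78.7 and 83 CPM with BBOX1 and 48.9, 48 and 47.5 CPM with EV, a log2 fold change of 0.89. PLXDC2, a transmembrane protein with a plexin repeat, rose at 135, 108 and 121 CPM with BBOX1 and 68.3, 70.6 and 63.3 CPM with EV, a log2 fold change of 0.84. FILIP1L had log2 0.89 and the alpha-kinase ALPK2 log2 0.83, with edgeR adjusted p of 0.00313 and 0.00359. BBOX1 replicate 1 was the highest library of FILIP1L, SEMA3A, PLXDC2 and ALPK2.

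Members of the hypoxia and glycolysis lists that passed the test were lower with BBOX1. Of 41 measured HIF targets 12 fell and 0 rose, and of 27 glycolysis genes 8 fell and 0 rose, with some genes in both lists. Their median log2 fold changes were -0.40 and -0.44, beside 0.02 over all genes tested, of which 3.63% fell. The membrane carbonic anhydrase CA9, a classical HIF target, had 7.38, 2.3 and 5.73 CPM in the BBOX1 xenografts, against 29.7, 58.6 and 30.0 CPM in the EV xenografts. It was low in every BBOX1 library and lowest in replicate 2, and EV replicate 2 was well above the other EV libraries (log2 fold change -2.94, SE 0.37, edgeR adjusted p = 0.00177). ERO1A, the oxidase that drives disulfide formation in the endoplasmic reticulum, had 59.2, 56.9 and 49.5 CPM in the BBOX1 xenografts, against 109, 129 and 100 CPM in the EV xenografts (log2 fold change -1.03, SE 0.13, edgeR adjusted p = 0.00203). BNIP3, a mitophagy receptor, had 65.5, 49.6 and 53.2 CPM in the BBOX1 xenografts, against 93.2, 104 and 91.7 CPM in the EV xenografts. All BBOX1 libraries of ERO1A and BNIP3 lay under the EV range (log2 fold change -0.78, SE 0.13, edgeR adjusted p = 0.00939 for BNIP3, which no longer passed without BBOX1 replicate 3 or EV replicate 2 at an adjusted p up to 0.0679).

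Promoters of CA9 and BNIP3 are shown because HIF binds a short DNA element in both. They are RefSeq sequences of GRCh38.p14 on the strand of the gene, 250 bases before to 50 after the start, with capitals marking ACGTG or GCGTG on either strand.
CA9 chr9:35673678-35673977 (+): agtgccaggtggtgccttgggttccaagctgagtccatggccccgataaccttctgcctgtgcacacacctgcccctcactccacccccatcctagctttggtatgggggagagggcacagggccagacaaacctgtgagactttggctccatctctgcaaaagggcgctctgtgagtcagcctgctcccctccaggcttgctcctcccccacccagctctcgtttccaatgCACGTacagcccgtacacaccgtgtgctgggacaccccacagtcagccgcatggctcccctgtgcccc
BNIP3 chr10:131981874-131982173 (-): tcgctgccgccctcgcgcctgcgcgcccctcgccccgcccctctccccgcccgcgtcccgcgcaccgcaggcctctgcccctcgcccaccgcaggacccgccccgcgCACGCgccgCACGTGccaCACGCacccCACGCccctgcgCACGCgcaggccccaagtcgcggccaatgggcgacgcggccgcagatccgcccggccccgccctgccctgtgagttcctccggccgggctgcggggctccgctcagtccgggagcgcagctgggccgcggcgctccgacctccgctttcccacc
CA9 holds 1 match close to its start and BNIP3 holds 6, of which a pair overlap in a palindrome. Of the 41 HIF targets 32 had a promoter in the table, and 26 of these (81.2%) held the element, beside 48.4% of all 35116 promoters. A match is a description of the letters and not a measured site.

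In glycolysis the fallen members run along the pathway. SLC2A1, the main glucose transporter, had 728, 787 and 659 CPM in the BBOX1 xenografts, against 1106, 1374 and 1289 CPM in the EV xenografts (log2 fold change -0.79, SE 0.14, edgeR adjusted p = 0.0109). Its call was lost without BBOX1 replicate 3 or EV replicate 2, at an edgeR adjusted p up to 0.0847. PKM, pyruvate kinase, had 3158, 3105 and 2799 CPM in the BBOX1 xenografts, against 4606, 4817 and 4441 CPM in the EV xenografts (log2 fold change -0.61, SE 0.14, edgeR adjusted p = 0.0322). LDHA, lactate dehydrogenase A, named after its value was seen, had 1096, 1241 and 1044 CPM in the BBOX1 xenografts, against 1549, 1710 and 1667 CPM in the EV xenografts (log2 fold change -0.54, SE 0.13, edgeR adjusted p = 0.0409). The groups did not overlap in these genes, yet the calls of PKM and LDHA did not hold without any 1 library except BBOX1 replicate 1, at an edgeR adjusted p up to 0.184 and 0.203. The number of HIF targets that fell was 18, 9 and 3 without BBOX1 replicate 1, 2 or 3 and 5, 3 and 5 without EV replicate 1, 2 or 3. For glycolysis genes it was 15, 2 and 0 without BBOX1 replicate 1, 2 or 3 and 1, 0 and 1 without EV replicate 1, 2 or 3. VEGFA, an angiogenic factor and HIF target, had 1664, 2853 and 2573 CPM in the BBOX1 xenografts, against 3040, 3325 and 2478 CPM in the EV xenografts, groups that overlapped (log2 fold change -0.32, SE 0.20, edgeR adjusted p = 0.355). BBOX1 libraries 1, 2 and 3 were below the EV range in 31, 23 and 27 of the 41 HIF targets. Over all genes the shares below it were 31.6%, 37.2% and 36.3%.

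Lists of amino acid stress and redox genes held fallen members as well. Of 38 targets of ATF4, the transcription factor of the integrated stress response, 11 fell and 0 rose, beside 3.63% and 1.91% of all genes, with a median of -0.36. PCK2, mitochondrial phosphoenolpyruvate carboxykinase, had 25.9, 27.2 and 26.5 CPM in the BBOX1 xenografts, against 55.3, 55.2 and 46 CPM in the EV xenografts (log2 fold change -0.97, SE 0.12, edgeR adjusted p = 0.00179). CEBPB, a transcription factor, had 68, 78.4 and 80.4 CPM in the BBOX1 xenografts, against 116, 137 and 138 CPM in the EV xenografts (log2 fold change -0.78, SE 0.12, edgeR adjusted p = 0.00648). In both genes every BBOX1 library was well under every EV library. SHMT2, the mitochondrial serine hydroxymethyltransferase, had 106, 90.6 and 84.3 CPM in the BBOX1 xenografts, against 151, 177 and 152 CPM in the EV xenografts (log2 fold change -0.78, SE 0.13, edgeR adjusted p = 0.00844). SLC3A2, the heavy chain of amino acid exchangers, had 184, 237 and 214 CPM in the BBOX1 xenografts, against 339.7, 369 and 329 CPM in the EV xenografts (log2 fold change -0.71, SE 0.13, edgeR adjusted p = 0.0133). Both calls were lost without BBOX1 replicate 3 or EV replicate 2, at an edgeR adjusted p up to 0.0647 and 0.0929. The number of ATF4 targets that fell was 16, 8 and 2 without BBOX1 replicate 1, 2 or 3 and 8, 2 and 6 without EV replicate 1, 2 or 3.

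Of 35 targets of NRF2, the transcription factor of the antioxidant response, 5 fell and 0 rose, beside 3.63% and 1.91% of all genes, with a median of -0.24. TXNRD1, thioredoxin reductase, fell the most of them. It had 75.2, 47 and 46.6 CPM in the BBOX1 xenografts, against 178, 210.4 and 161 CPM in the EV xenografts. BBOX1 replicate 1 was the highest of its group and still under every EV library (log2 fold change -1.70, SE 0.19, edgeR adjusted p = 0.000834). Its RefSeq promoter (GRCh38.p14) is shown because NRF2 binds antioxidant response elements, and capitals mark TGACNNNGC on either strand.
TXNRD1 chr12:104215529-104215828 (+): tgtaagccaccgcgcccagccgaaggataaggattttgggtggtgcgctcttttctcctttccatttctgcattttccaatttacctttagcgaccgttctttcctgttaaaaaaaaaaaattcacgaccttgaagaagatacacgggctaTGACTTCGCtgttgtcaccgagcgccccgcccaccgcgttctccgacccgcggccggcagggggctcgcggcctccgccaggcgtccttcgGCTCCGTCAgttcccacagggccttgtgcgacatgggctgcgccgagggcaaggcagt
It holds 2 matches, 1 on each strand. The element was found in 6 of the 25 NRF2 targets with a promoter in the table (24%), and in 13.3% of all promoters. HMOX1, heme oxygenase 1, had 33, 40.7 and 26 CPM in the BBOX1 xenografts, against 68.5, 88.7 and 59.3 CPM in the EV xenografts (log2 fold change -1.12, SE 0.19, edgeR adjusted p = 0.00886), which no longer passed without BBOX1 replicate 3 at an adjusted p of 0.0535. SLC7A11, the cystine transporter that is a target of both NRF2 and ATF4, had 5.35, 3.25 and 3.33 CPM in the BBOX1 xenografts, against 8.67, 10.8 and 8.4 CPM in the EV xenografts (log2 fold change -1.23, SE 0.25, edgeR adjusted p = 0.0211). Its call was lost without BBOX1 replicate 2 or 3 or EV replicate 2 or 3, at an edgeR adjusted p up to 0.116. The number of NRF2 targets that fell was 14, 2 and 2 without BBOX1 replicate 1, 2 or 3 and 4, 2 and 2 without EV replicate 1, 2 or 3.

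Cell cycle genes had fitted values below 0 in most members, by small steps. Of 54 genes 11 fell, 0 rose and 43 did not pass, where 3.63% of all genes fell and 1.91% rose. The median was -0.41, and 51 of 54 fitted values were below 0. The groups did not overlap in 33 of them, all with BBOX1 lower, where 15% of all genes do so. BBOX1 libraries 1, 2 and 3 were below the EV range in 40, 45 and 50 of the 54. Over all genes the shares below it were 31.6%, 37.2% and 36.3%. The summed level was 3485, 3224 and 2839 CPM in the BBOX1 xenografts and 3945, 4510 and 4121 CPM in the EV xenografts. CCNB2, a mitotic cyclin, had 38.9, 29 and 28.9 CPM in the BBOX1 xenografts, against 52.5, 60.6 and 53.6 CPM in the EV xenografts (log2 fold change -0.78, SE 0.14, edgeR adjusted p = 0.0135). PLK1, a mitotic kinase, had 72.4, 59.9 and 55.4 CPM in the BBOX1 xenografts, against 94.4, 113 and 94.8 CPM in the EV xenografts (log2 fold change -0.69, SE 0.14, edgeR adjusted p = 0.0185). BBOX1 replicate 1 was the highest of its group in both. AURKA, another mitotic kinase, had 41.6, 37.9 and 32.7 CPM in the BBOX1 xenografts, against 53.8, 65.3 and 60.2 CPM in the EV xenografts (log2 fold change -0.68, SE 0.13, edgeR adjusted p = 0.0183). MKI67, the proliferation marker Ki-67, named after its value was seen, had 232, 179.5 and 154 CPM in the BBOX1 xenografts, against 236, 299 and 256 CPM in the EV xenografts and did not pass (log2 fold change -0.49, SE 0.16, edgeR adjusted p = 0.0989). The calls of all 3 were lost without BBOX1 replicate 3 or EV replicate 2. Those of AURKA and PLK1 were lost without EV replicate 3 as well, and that of PLK1 without BBOX1 replicate 2. The edgeR adjusted p then reached 0.0874 for CCNB2, 0.113 for AURKA and 0.113 for PLK1. The number of cell cycle genes that fell was 34, 4 and 0 without BBOX1 replicate 1, 2 or 3 and 3, 0 and 2 without EV replicate 1, 2 or 3.

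The promoters of CCNB2 and PLK1 are shown because many mitotic genes carry CCAAT boxes and a cell cycle homology region near their start. They are RefSeq sequences of GRCh38.p14 on the strand of the gene, with capitals marking CCAAT or TTTGAA on either strand.
CCNB2 chr15:59104896-59105195 (+): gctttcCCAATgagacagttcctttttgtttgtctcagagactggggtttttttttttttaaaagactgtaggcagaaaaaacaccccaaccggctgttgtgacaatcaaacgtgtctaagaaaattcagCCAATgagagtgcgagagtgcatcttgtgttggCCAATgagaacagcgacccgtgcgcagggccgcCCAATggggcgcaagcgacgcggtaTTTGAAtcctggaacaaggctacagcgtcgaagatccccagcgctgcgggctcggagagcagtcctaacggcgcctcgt
PLK1 chr16:23678639-23678938 (+): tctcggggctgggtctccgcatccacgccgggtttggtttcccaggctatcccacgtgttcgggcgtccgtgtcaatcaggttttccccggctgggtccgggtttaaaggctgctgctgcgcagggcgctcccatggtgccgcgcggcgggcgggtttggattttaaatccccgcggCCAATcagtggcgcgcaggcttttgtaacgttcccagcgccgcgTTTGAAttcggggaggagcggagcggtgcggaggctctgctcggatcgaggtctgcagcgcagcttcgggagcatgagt
CCNB2 holds 5 matches and PLK1 holds 2. Of the 54 cell cycle genes 42 had a promoter in the table. CCAAT was found in 31 of these (73.8%) and in 34.6% of all promoters, and TTTGAA in 14 (33.3%) and in 15.2% of all promoters.

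**Figure D2:**
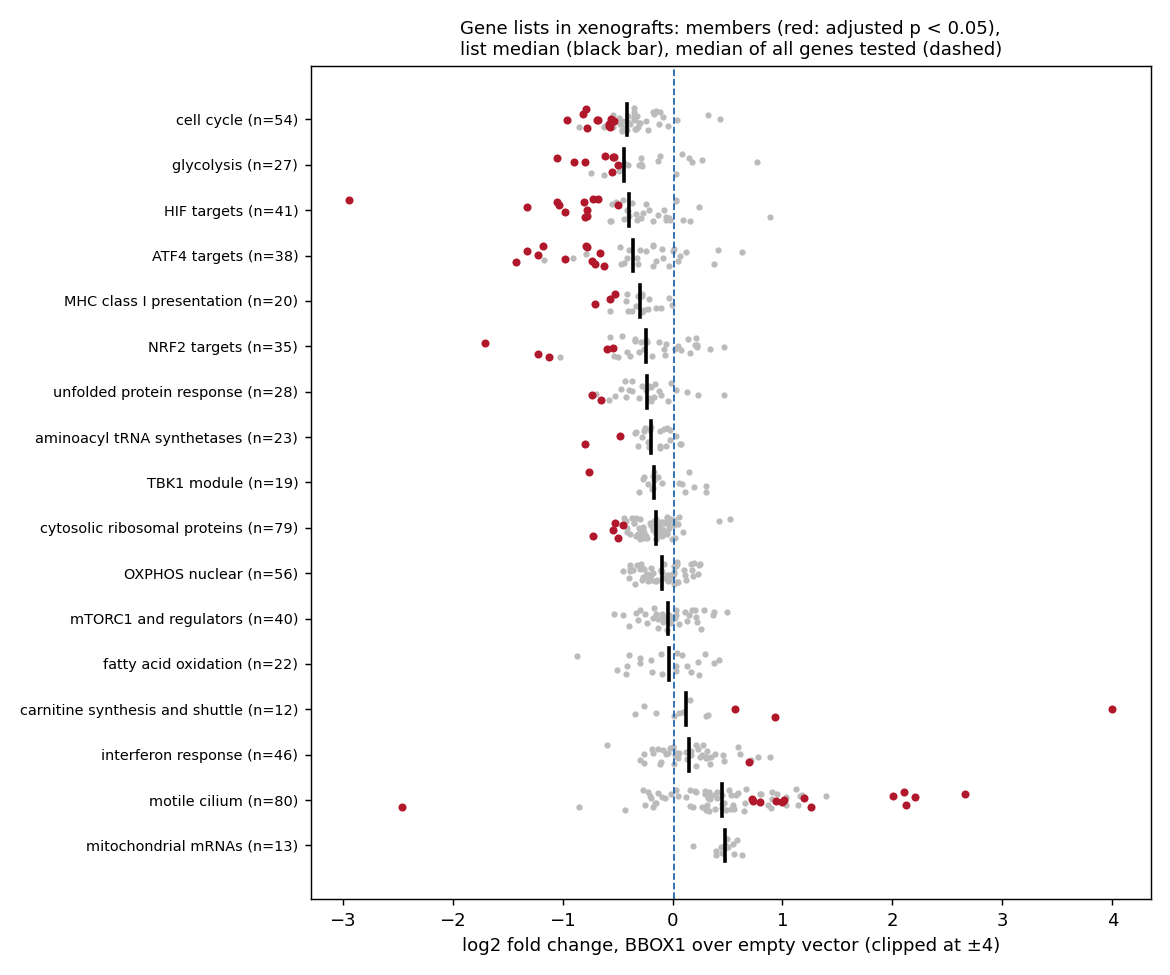
Log2 fold change of BBOX1 over EV (x axis, clipped at 4 either way) for each tested member of 17 gene lists, red where edgeR called the gene and grey otherwise, with black bars for list medians and a dashed line at the median of all genes, 0.02. Called points lie left of 0 in the cell cycle, glycolysis, HIF and ATF4 lists, whose medians are -0.41, -0.44, -0.40 and -0.36, and mostly right of 0 in the motile cilium list, whose median is 0.45.

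The list that holds BBOX1 itself had 2 other calls. Of 12 measured genes of carnitine synthesis and transport 3 rose, where 1.91% of all genes did, and 1 of these 3 is BBOX1 itself. The number that rose was 3, 1 and 1 without BBOX1 replicate 1, 2 or 3 and 1, 1 and 2 without EV replicate 1, 2 or 3. CROT, the peroxisomal carnitine octanoyltransferase, had 41.3, 39.7 and 38.3 CPM in the BBOX1 xenografts, against 22.3, 26.6 and 31.2 CPM in the EV xenografts (log2 fold change 0.57, SE 0.14, edgeR adjusted p = 0.043). CPT1B, the muscle form of the carnitine palmitoyltransferase that starts fatty acid import into mitochondria, had 6.57, 9.34 and 10.1 CPM in the BBOX1 xenografts, against 5.19, 4.39 and 4.11 CPM in the EV xenografts (log2 fold change 0.93, SE 0.23, edgeR adjusted p = 0.0433). The groups did not overlap in either gene. The call of CROT was lost without BBOX1 replicate 2 or 3 or EV replicate 1 or 2, and that of CPT1B without any 1 library except BBOX1 replicate 1 (edgeR adjusted p up to 0.19 and 0.188). The next genes were named after their values were seen. CPT1A, the form of that enzyme found in kidney and liver, had 55.5, 45.5 and 55.6 CPM in the BBOX1 xenografts, against 38.3, 34.7 and 52.3 CPM in the EV xenografts, groups that overlapped (log2 fold change 0.32, SE 0.16, edgeR adjusted p = 0.243). The carnitine importer SLC22A5 had 47.9, 43.9 and 41.5 CPM in the BBOX1 xenografts, against 39, 36 and 32.7 CPM in the EV xenografts (log2 fold change 0.31, SE 0.12, edgeR adjusted p = 0.153). SLC25A20, the carnitine shuttle of the inner membrane, had 12.4, 12.6 and 15.4 CPM in the BBOX1 xenografts, against 10.5, 12.8 and 15.5 CPM in the EV xenografts (log2 fold change 0.06, SE 0.18, edgeR adjusted p = 0.865). Of these only SLC22A5 had groups apart, by a small step that did not pass.

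Fatty acid oxidation gave 0 calls in either direction among 22 genes with edgeR, with a median of -0.04, and at an unadjusted edgeR p under 0.05 the counts were 0 higher and 6 lower. Without BBOX1 replicate 1, 1 of them rose and 4 fell, beside 11.1% and 14.7% of all genes. DESeq2 called 0 and 0. HADHA, the alpha subunit of the trifunctional protein, had 215, 168 and 189.6 CPM in the BBOX1 xenografts, against 210.5, 214 and 232 CPM in the EV xenografts (log2 fold change -0.20, SE 0.13, edgeR adjusted p = 0.35). The groups overlapped in that gene. Fatty acid synthesis also gave 0 calls among 17 genes with edgeR; at an unadjusted edgeR p under 0.05 the counts were 1 higher and 4 lower, and DESeq2 called 0 higher and 2 lower. With BBOX1 replicate 1 left out, 2 rose and 6 fell, beside 11.1% and 14.7% of all genes. Its synthase FASN, named after its value was seen, had 139.8, 135 and 125 CPM in the BBOX1 xenografts, against 137, 126 and 133 CPM in the EV xenografts (log2 fold change 0.01, SE 0.11, edgeR adjusted p = 0.955). Levels of FASN were nearly equal in all 6 libraries. Of 25 lipid droplet genes, with a median of 0.03, 2 fell, PLIN2 among them, beside 3.63% of all genes. The number was 5 without BBOX1 replicate 1, beside 14.7% of all genes, and 1 to 2 with any other library left out.

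Transcripts of the kinases in the series title did not pass. TBK1 had 27.1, 22.9 and 20.6 CPM in the BBOX1 xenografts, against 19.7, 21.2 and 20.9 CPM in the EV xenografts (log2 fold change 0.19, SE 0.14, edgeR adjusted p = 0.423). MTOR had 98.2, 72.4 and 83.3 CPM in the BBOX1 xenografts, against 75.4, 87.7 and 80.6 CPM in the EV xenografts (log2 fold change 0.06, SE 0.13, edgeR adjusted p = 0.813). RPTOR, the scaffold of mTORC1, had 55.6, 55.6 and 54.1 CPM in the BBOX1 xenografts, against 49.8, 51.5 and 81.8 CPM in the EV xenografts (log2 fold change -0.15, SE 0.18, edgeR adjusted p = 0.634). Groups overlapped in all 3, and EV replicate 3 of RPTOR stood above the other 5 libraries. Among 40 genes of mTORC1 and its regulators edgeR called 0, with a median of -0.04, and at an unadjusted edgeR p under 0.05 the counts were 2 higher and 5 lower. Without BBOX1 replicate 1, 3 rose and 3 fell, beside 11.1% and 14.7% of all genes. DESeq2 called 1 higher and 2 lower. Of 19 genes of the TBK1 module 1 fell, beside 3.63% of all genes, the TBK1 adaptor AZI2, with 14.3, 11.2 and 9.38 CPM in the BBOX1 xenografts, against 19.7, 19.1 and 20.5 CPM in the EV xenografts (log2 fold change -0.76, SE 0.17, edgeR adjusted p = 0.0322). That call did not hold without any 1 library except BBOX1 replicate 1, at an edgeR adjusted p up to 0.135. Without that replicate 5 of the 19 fell, beside 14.7% of all genes. These are transcript levels and hold no measure of kinase activity.

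In mitochondrial and ribosomal transcripts BBOX1 replicate 1 lay apart from replicates 2 and 3. The 13 mitochondrially encoded mRNAs summed to 66830, 115500 and 127600 CPM in the BBOX1 xenografts and 81040, 62260 and 73750 CPM in the EV xenografts. BBOX1 replicates 2 and 3 were above the EV range in 13 of 13 of them and replicate 1 in 0 of 13. In edgeR 0 of the 13 passed, with a median of 0.48; at an unadjusted edgeR p under 0.05 the counts were 6 higher and 0 lower, and DESeq2 called 1 higher and 0 lower. Without BBOX1 replicate 1, 12 rose, where 11.1% of all genes did, with a median of 0.71. MT-CO1, a subunit of cytochrome c oxidase, had 19550, 34300 and 39300 CPM in the BBOX1 xenografts, against 23060, 17020 and 22050 CPM in the EV xenografts (log2 fold change 0.58, SE 0.26, edgeR adjusted p = 0.185). Nuclear genes of oxidative phosphorylation gave 0 calls among 56 with edgeR; at an unadjusted edgeR p under 0.05 the counts were 0 higher and 11 lower, and DESeq2 called 0 higher and 2 lower. With BBOX1 replicate 1 left out, 2 rose and 9 fell, beside 11.1% and 14.7% of all genes. The median was then 0.00, against -0.10 in the full set. In all, 39, 22 and 24 of the 56 lay below the EV range in BBOX1 libraries 1, 2 and 3. Over all genes those shares were 31.6%, 37.2% and 36.3%. COX4I1, a nuclear subunit of the same oxidase, had 199, 318 and 303 CPM in the BBOX1 xenografts, against 288, 242 and 293 CPM in the EV xenografts (log2 fold change -0.00, SE 0.17, edgeR adjusted p = 0.992), with BBOX1 replicate 1 the lowest library. Of 79 cytosolic ribosomal protein genes 5 fell, beside 3.63% of all genes. In BBOX1 libraries 1, 2 and 3, 74, 29 and 42 of the 79 lay below the EV range, beside 31.6%, 37.2% and 36.3% of all genes. RPS29 had 69.7, 54 and 62.3 CPM in the BBOX1 xenografts, against 106, 104 and 96.6 CPM in the EV xenografts (log2 fold change -0.72, SE 0.12, edgeR adjusted p = 0.0105). RPS12 had 298, 263 and 271 CPM in the BBOX1 xenografts, against 415, 385 and 413 CPM in the EV xenografts (log2 fold change -0.54, SE 0.12, edgeR adjusted p = 0.0256). These ribosomal proteins of the small subunit did not overlap between groups. Calls were lost without BBOX1 replicate 3 or EV replicate 2 for RPS29 and without any 1 library except BBOX1 replicate 1 for RPS12, at edgeR adjusted p up to 0.0646 and 0.128. The number of ribosomal protein genes that fell was 12, 1 and 0 without BBOX1 replicate 1, 2 or 3. It was 1, 0 and 1 without EV replicate 1, 2 or 3. Without BBOX1 replicate 1, 14.7% of all genes fell. Without mitochondrially encoded genes 315 genes rose and 594 fell over the whole table; the part of their share of counts in the distance of BBOX1 replicate 1 was not tested.

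**Figure D3:**
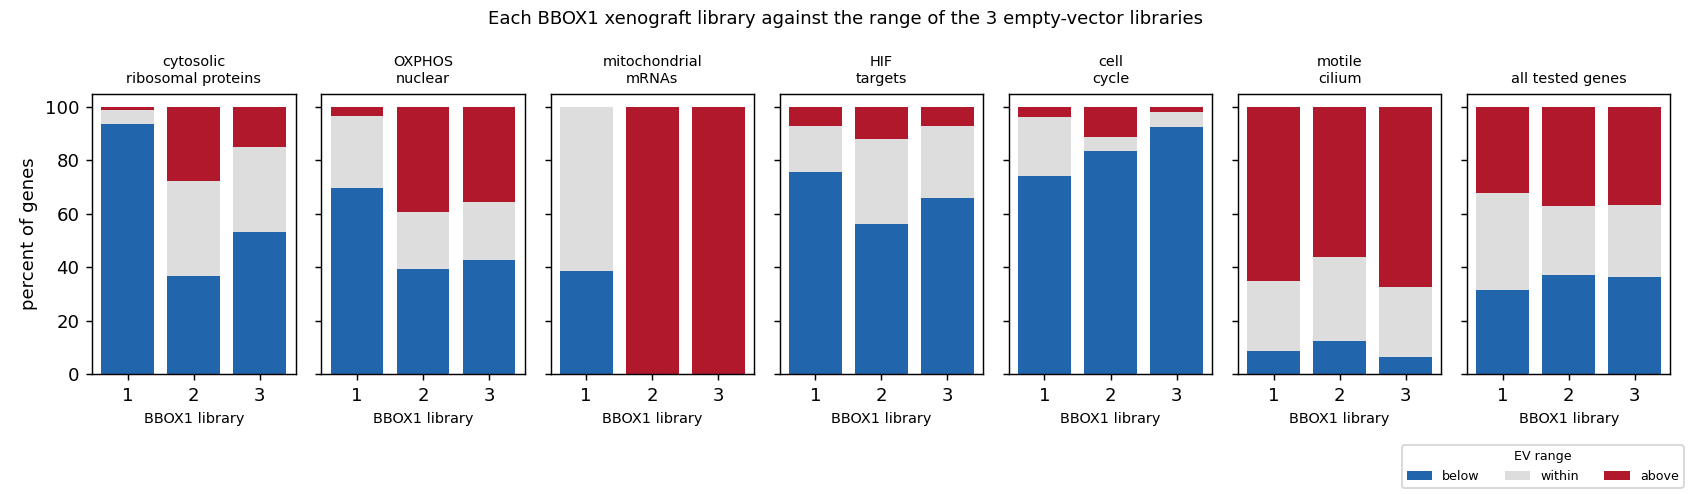
Percent of genes (y axis) below, within and above the CPM range of the 3 EV xenografts, for each BBOX1 xenograft library (x axis), in 6 lists and over all tested genes. Below the range in libraries 1, 2 and 3 lie 74, 29 and 42 of 79 ribosomal protein genes. For oxidative phosphorylation genes it is 39, 22 and 24 of 56, and over all tested genes 31.6%, 37.2% and 36.3%. The mitochondrial mRNAs are above the range only in libraries 2 and 3. HIF, cell cycle and cilium genes lean the same way in all 3 libraries.

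DSP fell to near 0, and EPCAM, LAMB3 and ERBB3 fell too. DSP, which encodes the desmosomal plaque protein desmoplakin, had 0.135, 0.135 and 0 CPM in the BBOX1 xenografts, against 57.4, 32.1 and 26 CPM in the EV xenografts. DSP was close to 0 in every BBOX1 library and well expressed in every EV library (log2 fold change -8.65, SE 0.52, edgeR adjusted p = 8.98e-06). With BBOX1 levels so near 0, the fitted size and its SE are approximate. EPCAM, an epithelial adhesion molecule, had 34.6, 36.6 and 27.6 CPM in the BBOX1 xenografts, against 109, 104 and 81.2 CPM in the EV xenografts (log2 fold change -1.58, SE 0.15, edgeR adjusted p = 0.000333). LAMB3, a laminin chain of epithelial basement membranes, had 66.5, 60.6 and 50.8 CPM in the BBOX1 xenografts, against 159, 168 and 118 CPM in the EV xenografts (log2 fold change -1.32, SE 0.16, edgeR adjusted p = 0.00131). ERBB3, a receptor of the EGFR family, had 0.0677, 0.542 and 0.189 CPM in the BBOX1 xenografts, against 2.17, 3.32 and 4.69 CPM in the EV xenografts, a low level in all libraries (log2 fold change -3.65, SE 0.57, edgeR adjusted p = 0.006). No BBOX1 library of these 3 genes reached the EV range. The lists they belong to had calls in a minority of members, beside 3.63% of all genes that fell and 1.91% that rose. Among 11 desmosome genes 2 fell and 0 rose, and the number that fell was 5 without BBOX1 replicate 1 and 1 with any other library left out. Among 31 genes of junctions and keratins 3 fell and 2 rose, with a median of 0.05; those that fell were 6 without BBOX1 replicate 1 and 1 to 3 with any other library left out, and those that rose 2 without BBOX1 replicate 1 and 0 to 2 with any other library left out. Among 42 matrix genes 5 fell and 0 rose, and those that fell were 12 without BBOX1 replicate 1 and 2 to 4 with any other library left out. Of 12 genes of the EGFR family and its ligands 1 fell, ERBB3. Keratinocyte markers, 4 of 10 of them tested, summed to 60.2 to 90.2 CPM with BBOX1 and 81.7 to 88.2 CPM with EV. Of the 4, 2 fell, and 0 of them held that call with each library left out. KRT7, a simple epithelial keratin, was 1 of those that rose, with 2.84, 2.57 and 4.28 CPM in the BBOX1 xenografts, against 1.38, 0.802 and 0.869 CPM in the EV xenografts (log2 fold change 1.68, SE 0.37, edgeR adjusted p = 0.0282), which no longer passed without BBOX1 replicate 3 or EV replicate 2 or 3 (edgeR adjusted p up to 0.148). The other was CLDN3, a claudin of tight junctions, named after its value was seen, with 19.6, 22.2 and 27.4 CPM in the BBOX1 xenografts, against 16.4, 8.67 and 9.79 CPM in the EV xenografts (log2 fold change 1.00, SE 0.23, edgeR adjusted p = 0.036), whose call was lost without BBOX1 replicate 2 or 3 or EV replicate 2 or 3 (edgeR adjusted p up to 0.167). The matrix proteoglycan LUM had 0.745, 3.25 and 3.84 CPM in the BBOX1 xenografts, against 16.7, 30.3 and 16.1 CPM in the EV xenografts (log2 fold change -3.00, SE 0.43, edgeR adjusted p = 0.00372). LUM is also a fibroblast marker; 1 of 7 tested markers of fibroblasts and pericytes fell, and it was LUM. In culture LUM averaged 1.75 ± 0.569 CPM with BBOX1 and 1.48 ± 0.424 CPM with EV (SD, n = 3 each).

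Kidney transcription factors went both ways, and the proximal tubule genes that passed the test were lower. HNF4G, a nuclear receptor of kidney and gut epithelium, had 17.3, 11.2 and 9.82 CPM in the BBOX1 xenografts, against 138, 201 and 116 CPM in the EV xenografts (log2 fold change -3.57, SE 0.25, edgeR adjusted p = 2.92e-05). SLC38A3, a glutamine transporter of the proximal tubule, had 0.609, 0.203 and 0.0629 CPM in the BBOX1 xenografts, against 17.1, 33.2 and 14.7 CPM in the EV xenografts (log2 fold change -6.21, SE 0.51, edgeR adjusted p = 0.0001). No BBOX1 library came near the EV range in either gene. EMX1, a homeobox gene listed here with kidney lineage factors, had 0 counts over the BBOX1 libraries and 87 over the EV libraries, at least 25.7-fold lower when the BBOX1 group is set to a floor of 3 counts. The floor covers counting error only. Of 25 kidney lineage factors 4 fell and 2 rose, beside 3.63% and 1.91% of all genes, with a median of -0.03. Those that fell were 4 without BBOX1 replicate 1 and 2 to 3 with any other library left out, and those that rose 5 without BBOX1 replicate 1 and 0 to 1 with any other library left out. The risen members, named after their values were seen, are transcription factors. TFCP2L1 had 4.4, 2.64 and 5.22 CPM in the BBOX1 xenografts, against 2.1, 1.39 and 1.22 CPM in the EV xenografts (log2 fold change 1.39, SE 0.35, edgeR adjusted p = 0.0467). IRX5 had 38.1, 36.7 and 39.7 CPM in the BBOX1 xenografts, against 26.5, 23.6 and 30.2 CPM in the EV xenografts (log2 fold change 0.51, SE 0.13, edgeR adjusted p = 0.047). The call of TFCP2L1 was lost without BBOX1 replicate 3 or any EV library and that of IRX5 without any 1 library except BBOX1 replicate 1, at edgeR adjusted p up to 0.196 and 0.245. Of 18 proximal tubule genes 3 fell and 0 rose, ANPEP among the fallen, and the number was 8, 1 and 1 without BBOX1 replicate 1, 2 or 3 and 1, 1 and 3 without EV replicate 1, 2 or 3. CUBN, the endocytic receptor cubilin, had 17.4, 12.6 and 14.7 CPM in the BBOX1 xenografts, against 28.4, 42.7 and 20.7 CPM in the EV xenografts (log2 fold change -1.04, SE 0.24, edgeR adjusted p = 0.0333). MME, neprilysin of the brush border, had 731, 585 and 625 CPM in the BBOX1 xenografts, against 864, 1168 and 926 CPM in the EV xenografts (log2 fold change -0.61, SE 0.15, edgeR adjusted p = 0.0453). The call of CUBN was lost without BBOX1 replicate 2 or 3 or EV replicate 1 or 2, and that of MME without any 1 library except BBOX1 replicate 1, at edgeR adjusted p up to 0.146 and 0.234. Markers of tubule epithelium, 2 of 11 of them tested, summed to 16.6 to 21.5 CPM with BBOX1 and 22.9 to 45 CPM with EV. Of the 2, 1 fell, CUBN, whose lost calls are given above.

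Motile cilium genes were the list with the most members that rose. Among 80 genes with enough counts to test, of 124 listed, 13 rose and 1 fell, beside 1.91% and 3.63% of all genes. Their median was 0.45. The list was first drawn up after cilium genes had been seen among those that rose in these libraries, so it is no independent evidence of a direction. The groups did not overlap in 36 of the 80 with BBOX1 higher, where 14.2% of all genes do so. BBOX1 libraries 1, 2 and 3 were above the EV range in 52, 45 and 54 of the 80. Over all genes the shares above it were 32.08%, 37.25% and 36.66%. The summed level was 635, 651 and 709.6 CPM in the BBOX1 xenografts and 565, 486 and 471 CPM in the EV xenografts. FOXJ1, the master transcription factor of motile cilia, had 13.7, 15.5 and 14.8 CPM in the BBOX1 xenografts, against 7.81, 5.51 and 5.97 CPM in the EV xenografts (log2 fold change 1.19, SE 0.19, edgeR adjusted p = 0.006). TPPP3, a tubulin polymerisation factor, had 6.7, 8.6 and 16.2 CPM in the BBOX1 xenografts, against 2.5, 1.5 and 2.84 CPM in the EV xenografts, with BBOX1 replicate 3 the highest library (log2 fold change 2.21, SE 0.36, edgeR adjusted p = 0.00778). C1orf194, a gene of ciliated cells, had 2.91, 2.84 and 3.33 CPM in the BBOX1 xenografts, against 0.591, 0.321 and 0.521 CPM in the EV xenografts (log2 fold change 2.66, SE 0.38, edgeR adjusted p = 0.00348). VWA3A, named after its value was seen, had 3.38, 2.98 and 4.91 CPM in the BBOX1 xenografts, against 1.25, 0.909 and 0.464 CPM in the EV xenografts (log2 fold change 2.11, SE 0.40, edgeR adjusted p = 0.0152), which no longer passed without BBOX1 replicate 3 or EV replicate 2 or 3 (edgeR adjusted p up to 0.0958). The 1 member that fell, TUBA4B, had 2.37, 2.98 and 4.22 CPM in the BBOX1 xenografts, against 19.9, 18.7 and 14.2 CPM in the EV xenografts (log2 fold change -2.46, SE 0.24, edgeR adjusted p = 0.000333); it has near-identical tubulin relatives and is uncertain. The levels of these named genes were under 20 CPM in all libraries. The number of cilium genes that rose was 23, 4 and 3 without BBOX1 replicate 1, 2 or 3 and 8, 3 and 4 without EV replicate 1, 2 or 3.

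In the lists of interferon response and MHC class I presentation 4 genes passed the test. Of 46 interferon-response genes 1 rose, beside 1.91% of all genes, and it was TRIM22, an antiviral ubiquitin ligase, with 48.1, 56.7 and 57.2 CPM in the BBOX1 xenografts, against 36.6, 28.5 and 34.8 CPM in the EV xenografts (log2 fold change 0.70, SE 0.14, edgeR adjusted p = 0.0175). Without BBOX1 replicate 1, 9 of the 46 rose and 3 fell, beside 11.1% and 14.7% of all genes. The groups of TRIM22 did not overlap. Of 20 genes of MHC class I presentation 3 fell, beside 3.63% of all genes, 0 rose and all 20 fitted values were below 0, with a median of -0.30. The number that fell was 9, 0 and 0 without BBOX1 replicate 1, 2 or 3 and 1, 0 and 1 without EV replicate 1, 2 or 3. HLA-C had 784, 801 and 938 CPM in the BBOX1 xenografts, against 1153, 1237 and 1245 CPM in the EV xenografts (log2 fold change -0.53, SE 0.13, edgeR adjusted p = 0.043). PSME1, a subunit of the proteasome activator, had 139, 138 and 145 CPM in the BBOX1 xenografts, against 215, 227 and 185 CPM in the EV xenografts (log2 fold change -0.57, SE 0.12, edgeR adjusted p = 0.0236). HLA-C and PSME1 had groups that did not overlap, by steps smaller than those of the core genes above. CSF2, the growth factor GM-CSF, fell at a low level with 1.62, 1.62 and 1.7 CPM in the BBOX1 xenografts, against 5.32, 3.42 and 3.88 CPM in the EV xenografts (log2 fold change -1.34, SE 0.29, edgeR adjusted p = 0.0277). The calls of HLA-C and CSF2 were lost without any 1 library except BBOX1 replicate 1, that of TRIM22 without BBOX1 replicate 2 or 3 or EV replicate 2 or 3, and that of PSME1 without BBOX1 replicate 2 or 3 or EV replicate 1 or 2. The edgeR adjusted p then reached 0.199, 0.111, 0.116 and 0.156. HLA-C belongs to a family of near-identical genes whose reads can be split by the counting, so its value is uncertain.

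The share of genes that fell was largest on chromosome 14 among the autosomes and X. Of 500 tested genes on it 68 (13.6%) fell and 1 rose, beside 3.63% and 1.91% of all genes, and 12 of the 68 fell with each library left out. The median log2 fold change was -0.28, and no other autosome or X had a median so far from 0. Against the EV mean, the median over its genes on the log2(CPM + 1) scale was -0.13, -0.38 and -0.30 in BBOX1 xenografts 1, 2 and 3, and -0.16 between the BBOX1 and EV means of culture. The share that fell on chromosome 15, where ANPEP and PKM lie, was 6.85%. Of the genes described, SERPINA1, SLC7A7, ERO1A, PCK2, RPS29, PSME1, NPC2 and WARS lie on chromosome 14. Without that chromosome 272 genes rose and 512 fell. The part of chromosome 14 as a whole in the fall of these genes was not tested, and DNA copy number was not measured here.

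**Figure D4:**
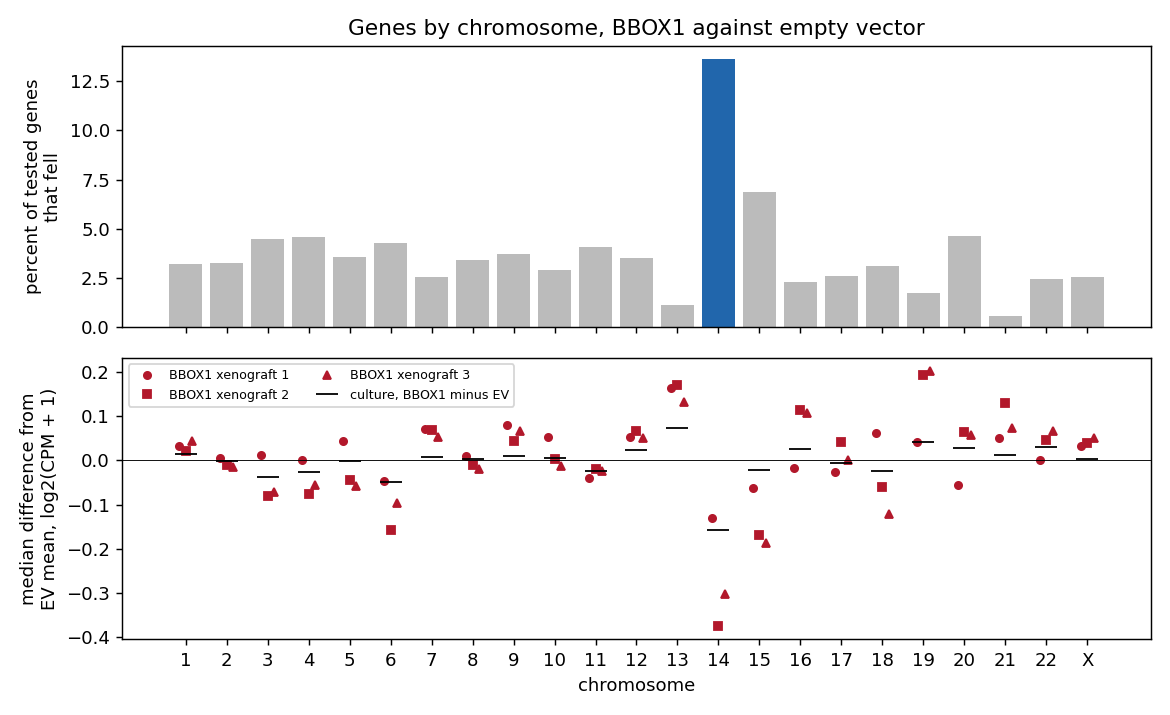
Top: percent of tested genes that fell (y axis) on each chromosome (x axis), with chromosome 14 in blue at 13.6%. Bottom: median difference from the EV mean on the log2(CPM + 1) scale for each BBOX1 xenograft (red) and for culture (black dash). Chromosome 14 lies lowest in BBOX1 xenografts 1, 2 and 3, at -0.13, -0.38 and -0.30, and in culture, at -0.16.

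Some of the effects described above differed from those in culture. Most genes described were named for a change in xenografts, and this test uses the same xenograft libraries. A called difference with the sign of the xenograft effect was therefore favoured by the choice. The BBOX1 effect in xenografts minus that in culture was tested in all 12 libraries by edgeR's interaction term. Of 16927 genes the difference was above 0 in 326 (1.93%) and below 0 in 552 (3.26%) at an adjusted p under 0.05. Only xenograft libraries were left out. Without BBOX1 replicate 1 these counts were 1432 and 2750, and without BBOX1 replicate 3 they were 167 and 369. Without EV replicate 1, 2 or 3 they were 493, 93 and 193 above 0 and 706, 265 and 455 below. MAP3K4 averaged 32.9 ± 3.5 CPM with BBOX1 and 273 ± 54.8 CPM with EV in xenografts, beside 62.2 ± 1.98 CPM with BBOX1 and 64.7 ± 1.22 CPM with EV in culture (SD, n = 3 each). The culture means were close to each other, and the difference was called (difference -3.00, SE 0.18, edgeR adjusted p = 2.77e-07). HNF4G averaged 12.8 ± 4.0 CPM with BBOX1 and 152 ± 44.1 CPM with EV in xenografts, beside 12 ± 0.656 CPM with BBOX1 and 11.4 ± 0.588 CPM with EV in culture (difference -3.65, SE 0.29, edgeR adjusted p = 1.11e-05). By CPM, this gene with EV was far higher in xenografts than in culture, and with BBOX1 it was at about the culture level. CPM was scaled separately for xenografts and culture, which limits this and the other levels compared between them. CA9 averaged 5.14 ± 2.59 CPM with BBOX1 and 39.5 ± 16.6 CPM with EV in xenografts, beside 0.699 ± 0.17 CPM with BBOX1 and 0.88 ± 0.295 CPM with EV in culture (difference -2.63, SE 0.69, edgeR adjusted p = 0.0409, lost without BBOX1 replicate 3 or EV replicate 2 at an adjusted p up to 0.0676). TXNRD1 averaged 56.3 ± 16.4 CPM with BBOX1 and 183 ± 25.2 CPM with EV in xenografts, beside 452 ± 5.36 CPM with BBOX1 and 417 ± 5.8 CPM with EV in culture (difference -1.82, SE 0.21, edgeR adjusted p = 0.000332). It was highest in culture in both groups, and lowest in BBOX1 xenografts.

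Some genes that rose in xenografts passed the same test. ADGRB2 averaged 44.2 ± 3.53 CPM with BBOX1 and 18.2 ± 1.44 CPM with EV in xenografts, beside 6.14 ± 0.719 CPM with BBOX1 and 6.75 ± 0.692 CPM with EV in culture (difference 1.41, SE 0.17, edgeR adjusted p = 0.00063). FILIP1L averaged 101 ± 12.8 CPM with BBOX1 and 54.6 ± 1.08 CPM with EV in xenografts, beside 11 ± 0.3 CPM with BBOX1 and 13.1 ± 1.46 CPM with EV in culture (difference 1.14, SE 0.15, edgeR adjusted p = 0.00096). Its xenograft level was above the culture level in both groups. For FOXJ1 the means were 14.7 ± 0.928 CPM with BBOX1 and 6.43 ± 1.22 CPM with EV in xenografts and 0.37 ± 0.12 CPM with BBOX1 and 0.06 ± 0.104 CPM with EV in culture, and the difference was not called (difference -1.40, SE 0.78, edgeR adjusted p = 0.297). CCL2, OGDHL, CPT1B, KRT7, CLDN3, TFCP2L1, TPPP3, C1orf194 and VWA3A rose in xenografts and did not pass for the difference either. For MKI67 the difference was -0.48 (SE 0.17, edgeR adjusted p = 0.114), also not called. Xenografts had a larger spread between replicates than culture, while this test uses 1 spread for both.

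**Figure D5:**
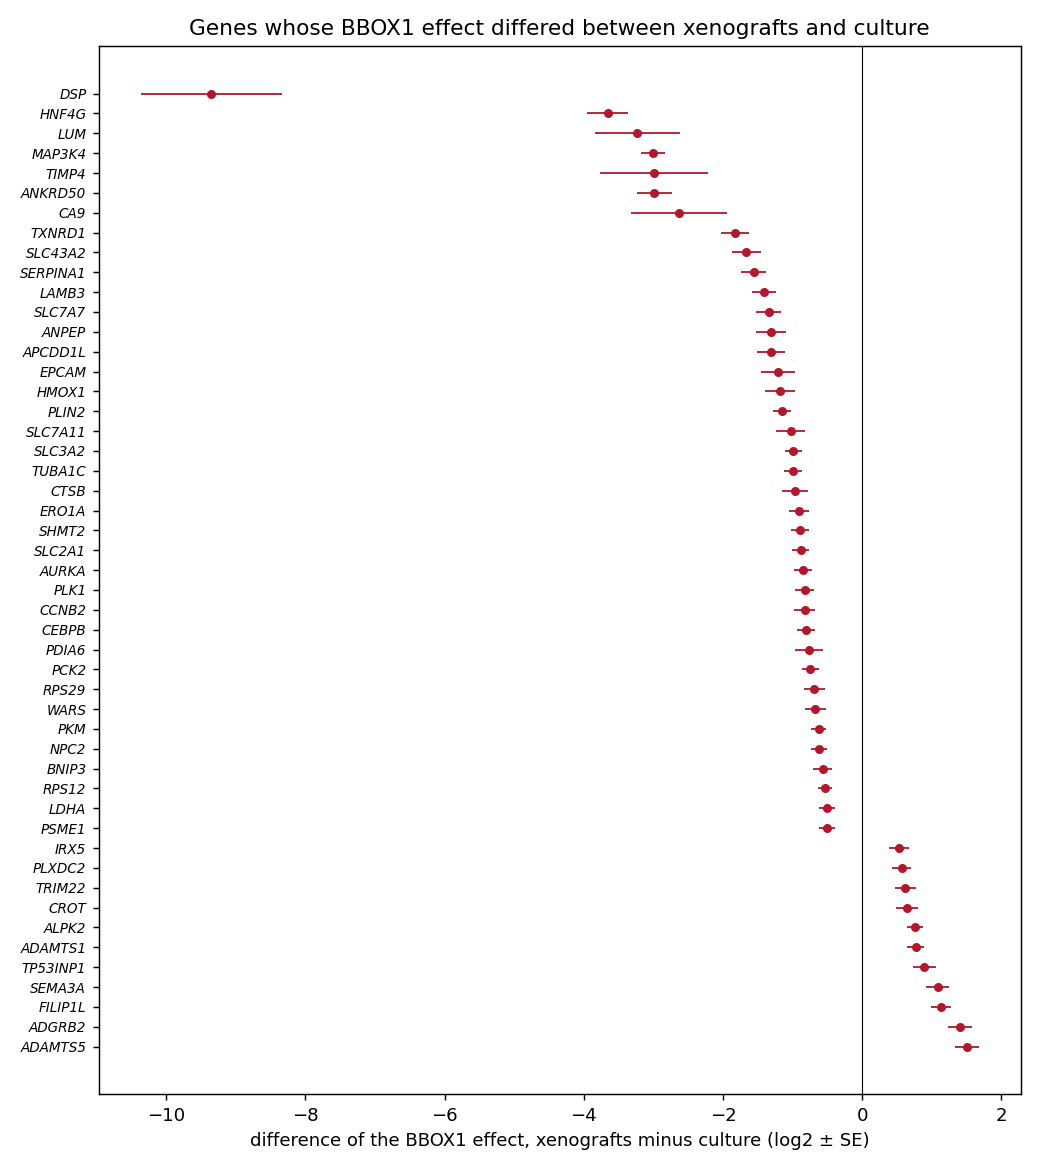
Difference of the BBOX1 effect, xenografts minus culture, on the log2 scale (x axis) with its SE as a bar, for the 49 described genes in which edgeR called it and every group had more than 3 counts (y axis). Genes left of 0, such as HNF4G at -3.65 and MAP3K4 at -3.00, had a lower BBOX1 effect in xenografts than in culture, and genes right of 0, such as ADGRB2 at 1.41, a higher one.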

How the data were processed

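Per the submitters' processing notes, fastp, STAR, featureCounts and DESeq2 were used, with build hg38; versions, roles and whether mouse reads were removed were not given in the sources used here. Polyadenylated RNA was prepared, per the labels' protocols, with a kit of the NEBNext Ultra type, which does not mark strand, and read as paired ends. The deposited table holds the authors' raw counts per gene for 58735 GENCODE 29 identifiers. Depth was 13729031 to 18937852 counts per xenograft library.

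Counts were analysed with edgeR 4.0.16 (R 4.3.3): libraries were scaled by TMM, genes kept by filterByExpr (minimum count 10, by group) and tested by quasi-likelihood, with p-values adjusted by Benjamini-Hochberg over every gene tested and calls at an adjusted p under 0.05. The xenograft comparison was fitted on its 6 libraries, n = 3 each, and the difference from culture on all 12. SE was taken as the size of the log2 fold change over the root of F, which is approximate near 0 counts. CPM uses the TMM-scaled library size, with TMM of the 6 xenograft libraries for xenografts and of all 12 libraries for culture. Levels in xenografts and in culture are thus not on the same scale. The code was tested on simulated data. Alternatives were RLE size factors, filters set to none or to 1 CPM in 3 libraries, DESeq2 1.42.0 as the test, voom with quality weights (limma 3.58.1), all 12 libraries in 1 fit, the replicate number as a block and each xenograft library left out. Leaving out chromosome 14 or mitochondrial genes was added after seeing the data.

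The comparison, its 33 pathway and 9 marker lists (1224 genes) and the rule that names genes were all fixed with earlier results of these data known, so lists have counts and medians and no test. The rule takes BBOX1, TBK1, MTOR and RPTOR. It adds the 10 most abundant protein-coding genes in each direction, and the 8 of largest change, that are called with every library left out, have no overlap between groups and reach 1 CPM. It adds up to 4 called members of each pathway list, or the 2 most abundant where none is called, 3 of each marker list, and 6 in each direction for the difference from culture. The text prints a part of these.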

Additional observations from a re-analysis of the deposited data

Results flagged for a closer look

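Each result here is a gene described above or below whose BBOX1 effect (log2 fold change over EV) differed between xenografts and culture by edgeR's interaction test at an adjusted p under 0.05, in which each of the 4 groups held more than 3 counts; values are xenografts minus culture on the log2 scale. BBOX1, SLC38A3 and EMX1 passed too (edgeR adjusted p = 0.0185, 0.0445 and 0.0163), with fitted values below 0, but each had a group with 0 counts, so no size is given. Among abundant genes that fell in xenografts, the difference was -1.56 for SERPINA1, -1.15 for PLIN2, -0.99 for TUBA1C and -1.30 for APCDD1L. For the transporters SLC7A7 and SLC43A2 it was -1.34 and -1.66, for ANPEP -1.31, for MAP3K4 -3.00 and for ANKRD50 -2.98. For genes of hypoxia and glycolysis it was -2.63 in CA9, -0.90 in ERO1A, -0.57 in BNIP3, -0.88 in SLC2A1, -0.63 in PKM and -0.51 in LDHA.

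Genes of amino acid stress, translation and folding differed too, by -0.74 in PCK2, -0.81 in CEBPB, -0.90 in SHMT2, -0.99 in SLC3A2, -0.67 in WARS and -0.76 in PDIA6. The redox genes TXNRD1, SLC7A11 and HMOX1 had differences of -1.82, -1.02 and -1.18, and the cell cycle genes CCNB2, AURKA and PLK1 of -0.82, -0.85 and -0.83. In epithelial, lineage and matrix genes the difference was -9.35 for DSP, -1.21 for EPCAM, -1.41 for LAMB3, -3.65 for HNF4G, -3.23 for LUM and -2.99 for TIMP4. DSP rests on levels under 1 CPM in culture, as does CA9 above. The ribosomal proteins RPS29 and RPS12 had -0.69 and -0.53, PSME1 had -0.51, and the lysosomal genes NPC2 and CTSB had -0.62 and -0.96.

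The difference was above 0 for these genes that rose in xenografts. It was 0.64 for CROT, 0.77 for ADAMTS1, 1.51 for ADAMTS5, 0.57 for PLXDC2, 1.14 for FILIP1L and 1.09 for SEMA3A. It was 0.77 for ALPK2, 1.41 for ADGRB2, 0.62 for TRIM22, 0.90 for TP53INP1 and 0.53 for IRX5. Of the 49 differences, 37 were also called with each xenograft library left out, and none changed sign in those fits. No culture library was left out. Most of the 49 genes were named for a change in xenografts, so the number and signs of these differences were favoured by the choice. Without EV replicate 2, 12 no longer passed, CROT, PLXDC2, CA9, BNIP3, LDHA, RPS29, TRIM22, PSME1, TIMP4, WARS, PDIA6 and IRX5, at an edgeR adjusted p up to 0.12 over the libraries left out; CROT, PLXDC2, CA9, BNIP3, TRIM22, TIMP4, PDIA6 and IRX5 were also lost without BBOX1 replicate 3, TRIM22, TIMP4, PDIA6 and IRX5 without BBOX1 replicate 2, IRX5 without EV replicate 1, and PLXDC2, TIMP4 and PDIA6 without EV replicate 3.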

How the results depend on the processing

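With 308 genes higher and 586 lower in the full comparison, the counts were 731 and 1002 in DESeq2, 797 and 1408 when low counts were kept, 1563 and 2105 with all 12 libraries in 1 fit, and 2110 and 2481 in voom with quality weights, which gave BBOX1 replicate 1 a weight of 0.314 and the others 0.886 to 1.88. RLE size factors, the 1 CPM filter and leaving out chromosome 14 or mitochondrial genes kept both counts within 1.5 times. With each library left out the range was 22 to 1854 higher and 153 to 2447 lower. The labels do not state that the replicate numbers of the titles pair the samples. Same-numbered libraries had correlations of deviations of -0.136, -0.129 and 0.0445, and those of different numbers had -0.155 to 0.211. With 3 libraries in each group these values cannot settle whether the samples were paired. The fit with the replicate block gave 103 and 352 genes in xenografts, 14 list members higher and 54 lower, and 176 genes whose difference from culture was above 0. For the difference from culture, 326 above and 552 below 0, DESeq2 gave 605 and 1088, no filter 570 and 1092 and voom 1526 and 2361. With a xenograft library left out the ranges were 93 to 1432 and 265 to 2750. Distinct members of the lists were 26 higher and 87 lower; DESeq2 gave 48 and 144, no filter 60 and 183, all 12 libraries 83 and 264, voom 114 and 270, and libraries left out 7 to 103 and 19 to 255. The cause was not tested. Of the 84 genes described, 70 were called, 38 also with each library left out; the 70 were called too by DESeq2 and voom, 54 with the replicate block and 38 without BBOX1 replicate 3. No called gene among them changed direction under any alternative run. Most of these genes were named because they were called, many of them with every library left out. Their stability was therefore favoured by the choice and does not describe all genes. The number of libraries and a biological coefficient of variation of 16.7% limit the smaller changes.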

Other observations

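Lysosomal and protein folding genes held a few further changes. Of 39 lysosome and autophagy genes 3 fell and 0 rose, with a median of -0.16, where 3.63% of all genes fell and 1.91% rose. The number that fell was 11 without BBOX1 replicate 1 and 1 to 2 with any other library left out. NPC2, which moves cholesterol inside lysosomes, had 39.1, 41.1 and 45.4 CPM in the BBOX1 xenografts, against 78.8, 70.9 and 67.8 CPM in the EV xenografts (log2 fold change -0.79, SE 0.12, edgeR adjusted p = 0.00486). It lies on chromosome 14. CTSB, the protease cathepsin B, had 416, 359.6 and 444 CPM in the BBOX1 xenografts, against 809, 949.8 and 585 CPM in the EV xenografts (log2 fold change -0.94, SE 0.18, edgeR adjusted p = 0.0147), which no longer passed without BBOX1 replicate 2 or 3 or EV replicate 2 (edgeR adjusted p up to 0.0854). Both genes had groups apart, with a wider spread of CTSB among EV libraries. Of 23 aminoacyl-tRNA synthetases 2 fell, with a median of -0.20, and the number was 7 without BBOX1 replicate 1 and 0 to 1 with any other library left out. WARS, the tryptophan enzyme, also on chromosome 14, had 49.5, 36.9 and 36.5 CPM in the BBOX1 xenografts, against 70.8, 76.2 and 66 CPM in the EV xenografts (log2 fold change -0.79, SE 0.14, edgeR adjusted p = 0.0122). PDIA6, a disulfide isomerase and 1 of 2 fallen genes among 28 of the unfolded protein response, had 339, 212 and 246 CPM in the BBOX1 xenografts, against 369, 454 and 504 CPM in the EV xenografts (log2 fold change -0.74, SE 0.18, edgeR adjusted p = 0.0433). The fallen genes of that list were 9 without BBOX1 replicate 1 and 0 to 1 with any other library left out. The call of WARS was lost without BBOX1 replicate 3 or EV replicate 2 and that of PDIA6 without any 1 library except BBOX1 replicate 1, at edgeR adjusted p up to 0.082 and 0.176.

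Calls were also found among ligands of immune checkpoints, p53 targets and matrix proteases, where 3.63% of all genes fell and 1.91% rose. HHLA2, a B7 family ligand found in clear cell carcinoma, had 8.19, 5.48 and 5.98 CPM in the BBOX1 xenografts, against 34.1, 33.8 and 22.2 CPM in the EV xenografts (log2 fold change -2.19, SE 0.22, edgeR adjusted p = 0.000344). It was 1 of 3 fallen genes among 21 checkpoint ligands and receptors, of which 0 rose, and those that fell were 6 without BBOX1 replicate 1 and 2 to 3 with any other library left out. HHLA2 was nearly absent in culture, with means of 0.0124 CPM with BBOX1 and 0 CPM with EV. TP53INP1, a p53 target, had 80.7, 58.1 and 71.4 CPM in the BBOX1 xenografts, against 41.7, 40.5 and 39 CPM in the EV xenografts (log2 fold change 0.80, SE 0.14, edgeR adjusted p = 0.00989), which no longer passed without BBOX1 replicate 3 or EV replicate 2 or 3 (edgeR adjusted p up to 0.0627). Of 28 p53 targets 2 rose and 0 fell, and those that rose were 6 without BBOX1 replicate 1 and 0 to 1 with any other library left out. Of 32 matrix proteases and their inhibitors 3 rose and 4 fell; those that rose were 8 without BBOX1 replicate 1 and 2 to 3 with any other library left out, and those that fell 9 without BBOX1 replicate 1 and 0 to 3 with any other library left out. ADAMTS5, an aggrecanase, had 28.5, 21.9 and 25.8 CPM in the BBOX1 xenografts, against 13.1, 13.1 and 11.5 CPM in the EV xenografts (log2 fold change 1.01, SE 0.15, edgeR adjusted p = 0.00436). TIMP4, an inhibitor of metalloproteases, had 0.338, 0.406 and 0.503 CPM in the BBOX1 xenografts, against 1.31, 3.05 and 2.38 CPM in the EV xenografts (log2 fold change -2.42, SE 0.46, edgeR adjusted p = 0.0151), at a low level, and no longer passed without BBOX1 replicate 2 or 3 or EV replicate 2 or 3 (edgeR adjusted p up to 0.0996). ADAMTS5 and TIMP4 had groups apart in opposite directions.

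In the remaining lists calls were few. Of 26 genes of cholesterol synthesis edgeR called 0; at an unadjusted edgeR p under 0.05 the counts were 1 higher and 4 lower, and DESeq2 called 1 higher and 1 lower. Of 35 genes of ribosome biogenesis and MYC edgeR called 0; at an unadjusted edgeR p under 0.05 the counts were 0 higher and 5 lower, and DESeq2 called 0 higher and 1 lower. Of 29 genes of NF-kB and chemokines 1 rose, CCL2, and 1 fell, CSF2, beside 1.91% and 3.63% of all genes. Of 28 immediate early and feedback genes 2 fell, and 0 of them did so with each library left out.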
